A study of Mus musculus with 12 samples.

Results

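The 32 genes described here encode corepressors and chromatin regulators that could act with the transcription factors Eos or Foxp3. They were taken by symbol from lists of known complexes. No measured value was part of the rule, but the set was drawn up with earlier results of these data known. Ctbp1 and Ctbp2 encode the CtBP corepressors. Chd3, Chd4, Mta1, Mta2, Mta3, Mbd2, Mbd3, Rbbp4, Rbbp7, Gatad2a and Gatad2b encode subunits of NuRD, a complex that remodels nucleosomes and removes histone acetylation. Sin3a and Sin3b encode the scaffolds of the Sin3 deacetylase complexes, Rcor1 and Kdm1a the scaffold and the histone demethylase of CoREST, and Ncor1 a nuclear receptor corepressor. Ezh1, Ezh2, Suz12 and Eed encode the Polycomb repressive complex that methylates histone H3. Dnmt1 and Dnmt3a encode DNA methyltransferases, and Tet1, Tet2 and Tet3 the enzymes that oxidise methylcytosine. Kat5 (the Tip60 acetyltransferase), Smarca4 and Arid1a (BAF remodelling), and Kmt2a and Kmt2d (histone methyltransferases of the MLL family) complete the set. All 32 stood among the 55450 genes in the deposited table, and all 32 were among the 15361 genes with enough counts to test.

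RNA was sequenced in 12 libraries, 4 from each of 3 populations of CD4+ cells sorted out of mouse thymus. Every animal was a CD4-Cre x Foxp3-GFP mouse, that is, each carried a Cre under CD4 control and a green reporter of Foxp3. The labels name no floxed allele, and they give neither the age of the mice nor the number pooled per library. Eos+ Tregs were Foxp3+ cells that also stained for Ccr6 and Cxcr4. Eos- Tregs were Foxp3+ cells negative for both surface proteins, and Tconv, the conventional T cells, were the Foxp3- cells. The gates did not use Eos itself. The series title places the study in the role of Eos in Treg homeostasis and in Tregs that recirculate to the thymus.

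Eos, encoded by Ikzf4, is a zinc finger protein of the Ikaros family and is known to work with Foxp3 in silencing genes in regulatory T cells (Tregs), with CtBP as a cofactor. Corepressor complexes bring histone deacetylases, demethylases and methyltransferases to promoters. DNA methyltransferases place and copy methylation on CpG dinucleotides, and TET enzymes start its removal, a step known to matter at the Foxp3 locus, whose stable expression needs an unmethylated enhancer. MLL-family methyltransferases and BAF remodellers are generally tied to active or poised genes.

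Levels are CPM, each gene's expected count scaled to a common, TMM-adjusted library size, and "called" means an adjusted p under 0.05 in edgeR's quasi-likelihood test, with Benjamini-Hochberg adjustment over all 15361 tested genes. Library totals lay between 23.9 and 37.9 M expected counts. Ikzf4 stood at 292 to 334 CPM in the Eos+ libraries, 155 to 181 in the Eos- libraries and 22.7 to 27.4 in the Tconv libraries, so the Eos- Tregs were not free of Eos transcript. Ccr6, a gate marker, was 227 to 263 CPM in Eos+ Tregs and at most 19.7 elsewhere. Foxp3 was far lower in 2 Treg libraries than in the rest of the Tregs, though still above every Tconv library. Eos+ Treg replicate 1 held 55.0 CPM and Eos- Treg replicate 1 held 53.3. The other 6 Treg libraries held 486 to 862, and Tconv at most 3.42. Counts are therefore also given without the 3 libraries numbered 1.

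Other measures differed between groups as well. The mean log2 CPM of 30 cell cycle genes was 4.62 to 5.81 in the Eos+ libraries, 2.60 to 5.57 in the Eos- libraries and 5.04 to 5.75 in the Tconv libraries, with Eos- replicates 3 and 4 lowest. All 30 had a positive log2 difference between Eos+ and Eos- Tregs, and 2 of them were called. The summed level of 15 B cell genes was 1524 to 1945 CPM in the Eos+ libraries, against 244 to 544 in the Eos- and 260 to 435 in the Tconv libraries. Of the 14 tested, 5 were called higher in Eos+ than in Eos- Tregs. Most of that sum was Ighm, at 1330 to 1656 CPM in Eos+ Tregs. Ms4a1, which marks B cells, was 4.02 to 15.6 CPM in the Eos+ libraries and 0 in 3 of the Eos- libraries. Transcripts of 8 kb or more, 357 abundant genes, had a median log2 deviation from their own gene mean of -0.22 and -0.21 in Eos+ replicates 1 and 2, and of 0.25 in Eos- replicate 3. Tet1, Tet2, Tet3, Dnmt3a, Ncor1, Arid1a, Kmt2a and Kmt2d are such long transcripts. Among genes listed as markers of other cells, Epcam, Aire, Xcr1 and Nkg7 were also called higher in Eos+ than in Eos- Tregs, and Pecam1 was called lower. In the list with Epcam, Aire and Pecam1, thymic epithelium and stroma, 3 tested genes had a positive difference and 3 a negative one. In the dendritic cell and macrophage list with Xcr1, 8 were positive and 2 negative. In the CD8, NK and cytotoxic list with Nkg7, 3 were positive and 6 negative. Epcam, an epithelial adhesion molecule, was 22.4 to 36.3 CPM in the Eos+ libraries, 10.1 to 15.1 in the Eos- and 6.28 to 7.65 in the Tconv libraries. Nkg7, a cytotoxic granule protein, was 108 to 159.7 CPM in the Eos+ libraries, 33.7 to 72.6 in the Eos- and 55.7 to 188 in the Tconv libraries. The part of these signals in the results was not tested. Fits with the cell cycle measure as a covariate and with a correction for transcript length are given beside the counts.

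**Figure D1:**
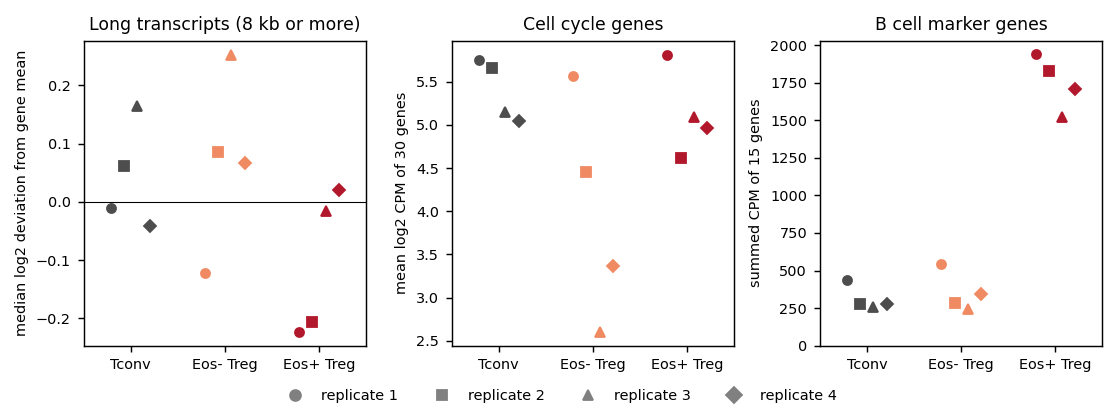
Each panel shows the 12 libraries, with the group on the x axis and the replicate number as the symbol. The y axes are the median log2 deviation of transcripts of 8 kb or more, the mean log2 CPM of 30 cell cycle genes and the summed CPM of the B cell genes. Eos- replicates 3 and 4 are lowest for the cell cycle genes, Eos+ replicates 1 and 2 are lowest for long transcripts, and the 4 Eos+ libraries are the highest for the B cell genes.

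Compared with Eos- Tregs, Eos+ Tregs held less transcript of 7 of the 32 genes: Rcor1, Ncor1, Dnmt3a, Tet1, Tet2, Tet3 and Arid1a. None was higher by edgeR, none by DESeq2, and all 12 with an unadjusted p under 0.05 had a negative difference. The test called 16.3% of all 15361 genes, 9.82% as higher and 6.45% as lower, beside 21.9% of the members. Of the 7, all but Rcor1 are transcripts of 8 kb or more, a class in which 11.4% of 674 tested genes were lower. The median log2 difference of the members was -0.16 against 0.003 for all tested genes, and 26 of 32 were negative. Only Ncor1, Tet1 and Tet2 had groups that did not overlap, a share of 9.38% beside 20% of all tested genes. Adding the replicate number as a block raised the lower calls to 11, with Chd3, Mta1, Gatad2b and Kdm1a added. With the cell cycle measure as a covariate 2 remained, Tet1 and Tet2. With the correction for transcript length 6 remained, Ncor1 being lost. Without the libraries numbered 1 the count was again 7, with Chd3 in place of Rcor1. It was 2 without Eos- replicate 3 or without Eos- replicate 4, 3 without Eos+ replicate 2 or Eos- replicate 2, 4 without Eos+ replicate 1 and 11 without Eos- replicate 1.

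Compared with Tconv, Eos+ Tregs held more Mta3 and Kmt2a and less of 12 members: Ctbp1, Rbbp4, Rcor1, Kdm1a, Ncor1, Ezh2, Suz12, Dnmt1, Dnmt3a, Tet1, Smarca4 and Arid1a. These 14 were 43.8% of the set, beside 30.3% of all tested genes, of which 17.3% were higher and 13% lower. The members' median log2 difference was -0.25 against -0.008 for all genes. The groups of 14 members did not overlap (43.8%, beside 33.1% of all tested genes). The count of lower members was 10 without the libraries numbered 1, which lost Kdm1a and Suz12, and 7 without Eos+ replicate 2. With the cell cycle covariate it was 14, Chd4 and Tet3 being added. The correction for transcript length kept 11 of the 14 calls, lost Ncor1, Suz12 and Smarca4, and added Mta2 and Ezh1.

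Compared with Tconv, Eos- Tregs held more Mta3 and Kmt2a and less Dnmt1 and Tet1. These 4 were 12.5% of the set, near the 14.6% of all tested genes (8.76% higher, 5.89% lower). The groups of 10 members did not overlap, 31.2% beside 20.1%. With the cell cycle covariate Mta3 alone was called, while the block added Chd3, Mbd3, Rbbp4 and Smarca4. The calls were the same 4 without the libraries numbered 1, and the correction for transcript length kept them and added Sin3b. Both comparisons with Tconv use the same 4 Tconv libraries. Over the 3 comparisons, 16 members were called in none, 8 in 1, 7 in 2 and Tet1 in all 3. This tally was not made for all tested genes, so it has no share to stand beside. In sorted populations measured in bulk, fewer cells with a transcript and less transcript per cell cannot be told apart.

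**Figure D2:**
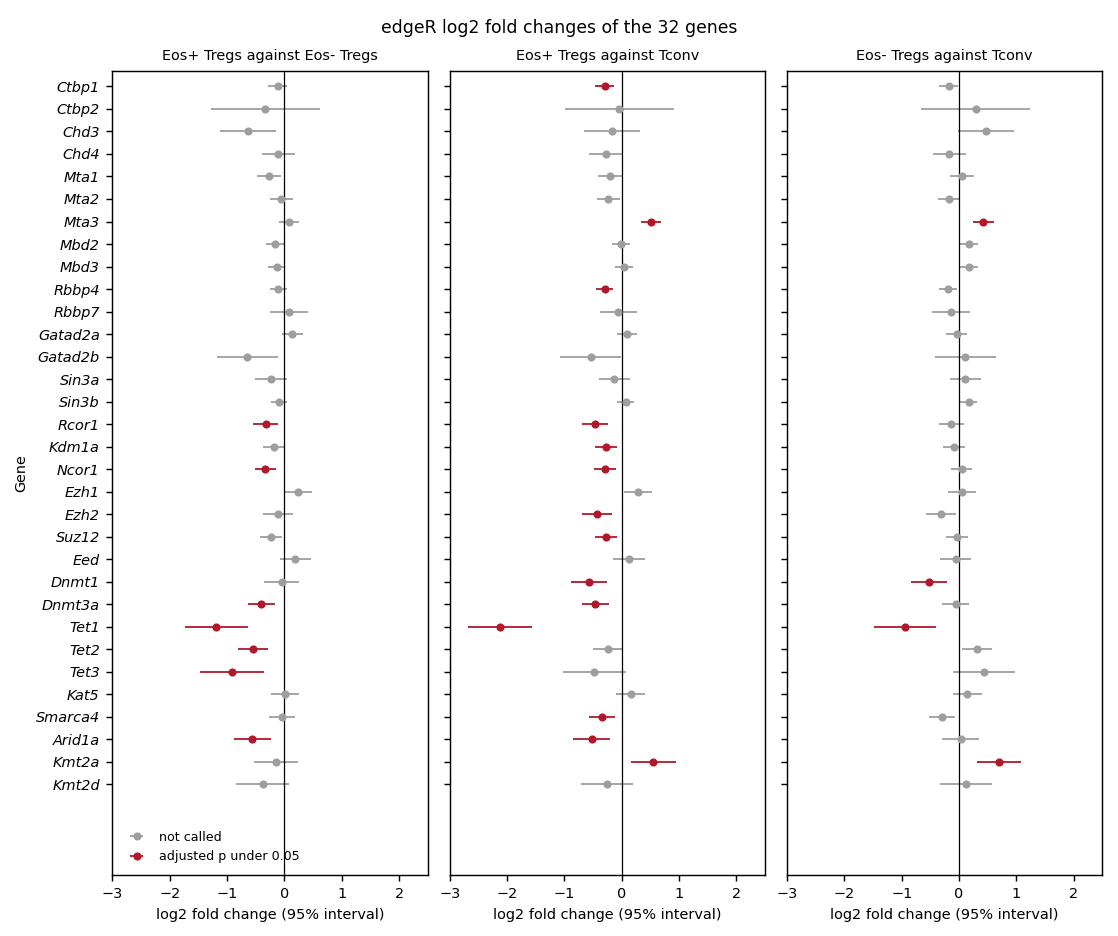
The x axis is the edgeR log2 fold change with its 95% interval, and the y axis lists the 32 genes in each of 3 comparisons. Red marks an adjusted p under 0.05. Tet1 lies farthest to the left in all 3 panels, and the calls in the first panel are all on the side lower in Eos+ Tregs.

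The enzymes of DNA methylation and demethylation held the largest differences. Per kilobase of annotated exons, Tet1 was the lowest of the 5 in each population, at 0.809 ± 0.321 CPM per kb for Eos+ Tregs, 1.84 ± 0.204 for Eos- Tregs and 3.54 ± 0.191 for Tconv (mean ± SD, n = 4), while Dnmt1 was the highest, at 19.8 ± 3.16, 20.5 ± 3.75 and 29.5 ± 3.47.

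Tet1 (ENSMUSG00000047146.17, chr10:62804570-62908996, minus strand, mm10) encodes a methylcytosine dioxygenase with a CXXC domain that binds CpG-rich DNA. Its level was 5.67, 12.0, 16.2 and 16.2 CPM in the Eos+ libraries, 31.8, 30.1, 27.2 and 24.7 in the Eos- libraries and 56.9, 57.6, 51.5 and 53.1 in the Tconv libraries. The 3 populations did not overlap: every Tconv library was above every Eos- library, and every Eos- library above every Eos+ library. The log2 difference was -1.19 (SE 0.25, adjusted p = 0.00611) between Eos+ and Eos- Tregs, a 2.28-fold lower level. It was -2.13 (SE 0.26, adjusted p = 4.31e-05) between Eos+ Tregs and Tconv, 4.38-fold lower, and -0.94 (SE 0.25, adjusted p = 0.0222) between Eos- Tregs and Tconv, 1.92-fold lower. The calls of Eos+ Tregs against both other groups held when any one library was left out. That of Eos- Tregs against Tconv was lost without Eos- replicate 3 or 4 or Tconv replicate 1 or 2, with adjusted p between 0.0534 and 0.071, and with the cell cycle covariate (adjusted p = 0.12).

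Promoter windows were picked out for members called against Tconv in both Treg populations. Those of Tet1 and Kmt2a, which had the largest fall and the largest rise against Tconv, are shown. Dnmt1, with 3 listed starts, also met the rule and is not printed, and Mta3 had no entry. Each line gives the 250 bases before the start that RefSeq lists for the gene (GRCm38.p6), read 5′ to 3′ on the gene's strand. Capitals mark the core motif TGGGAA of the Ikaros family, to which Eos belongs.
Tet1 promoter, chr10:62887325-62887574, minus strand: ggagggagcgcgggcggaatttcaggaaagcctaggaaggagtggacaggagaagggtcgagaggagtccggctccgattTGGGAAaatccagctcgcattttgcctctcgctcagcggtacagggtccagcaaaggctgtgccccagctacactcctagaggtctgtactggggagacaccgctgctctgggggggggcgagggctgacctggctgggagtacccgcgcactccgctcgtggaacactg
Kmt2a promoter, chr9:44881290-44881539, minus strand: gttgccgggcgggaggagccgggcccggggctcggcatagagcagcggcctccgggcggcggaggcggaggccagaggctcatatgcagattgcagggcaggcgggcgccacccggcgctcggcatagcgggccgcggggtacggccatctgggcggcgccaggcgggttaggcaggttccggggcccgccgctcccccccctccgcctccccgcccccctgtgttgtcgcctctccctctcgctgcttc
The Tet1 window, which lies inside the longest annotated span of the gene, held 15 CpG dinucleotides and 1 match to the core. Kmt2a held 29 CpG dinucleotides and no match to either motif searched. Of the Dnmt1 windows, only that at chr9:20959889-20960138 held a match to the Ikaros core. The searches were for TGGGAA or its reverse complement TTCCCA, and for the forkhead core TGTTTAC or GTAAACA, on both strands, and neither motif contains the other. RefSeq windows were found for 29 of the 32 members, 41 windows in all, since some genes have several starts. The Ikaros core was in 7 of the 41 (17.1%), beside 21.6% of all 32851 windows. The forkhead core was in 2 (4.88%), beside 3.17% of all windows. The members' windows held a median of 20 CpG dinucleotides against 6 for all windows. In 34 of them (82.9%) the CpG count was at least 0.6 of that expected from base composition, as in 34.0% of all windows. All windows cover 27025 genes, more than the 15361 tested here, while every member was tested. These shares therefore compare unlike sets of genes. A match is a run of letters and shows no binding.

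Tet2 (ENSMUSG00000040943.12, chr3:133463679-133545139, minus strand) encodes a dioxygenase that lacks the CXXC domain. Its level was 60.9, 68.6, 68.5 and 95.2 CPM in the Eos+ libraries, 96.7, 117, 116 and 100.1 in the Eos- libraries and 84.9, 88.3, 85.6 and 87.7 in the Tconv libraries. All 4 Eos- libraries were above all libraries of the other 2 groups, and Eos+ Tregs and Tconv overlapped because Eos+ replicate 4 was above every Tconv library. The log2 difference between Eos+ and Eos- Tregs was -0.55 (SE 0.12, adjusted p = 0.00836), and it held when any one library was left out. The differences of Eos+ Tregs from Tconv, -0.24 (SE 0.12, adjusted p = 0.167), and of Eos- Tregs from Tconv, 0.31 (SE 0.12, adjusted p = 0.116), were not called.

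Tet3 (ENSMUSG00000034832.15, chr6:83362373-83459084, minus strand), a dioxygenase with a CXXC domain in its long form, was at 36.6, 37.3, 60.2 and 70.6 CPM in the Eos+ libraries, 59.6, 89.9, 129 and 108 in the Eos- libraries and 65.6, 63.6, 91.4 and 64.9 in the Tconv libraries. Eos- Tregs ranged from 59.6 to 129 CPM, and their lowest library lay within the Eos+ range. The difference between Eos+ and Eos- Tregs was -0.92 (SE 0.25, adjusted p = 0.0269) on the log2 scale. It was lost without any one of Eos+ replicates 1 and 2 and Eos- replicates 2, 3 and 4 (adjusted p 0.05 to 0.0869), and with the cell cycle covariate, where the log2 difference was -0.46 (adjusted p = 0.234). Against Tconv, Eos+ Tregs differed by -0.48 (SE 0.25, adjusted p = 0.182), which the replicate block called (adjusted p = 0.0243).

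Dnmt1 (ENSMUSG00000004099.16, chr9:20907209-20959888, minus strand) copies methylation onto newly made DNA. It was at 166, 131, 166 and 121 CPM in the Eos+ libraries, 186, 160.4, 137 and 123 in the Eos- libraries and 249, 228, 205 and 191 in the Tconv libraries. Every Tconv library was above every library of either Treg population, and the Treg populations overlapped. The log2 difference from Tconv was -0.58 (SE 0.14, adjusted p = 0.0082) in Eos+ Tregs, and this call held when any one library was left out. In Eos- Tregs it was -0.53 (SE 0.14, adjusted p = 0.0266), a call lost without Eos- replicate 3 or 4 or Tconv replicate 1 or 2 (adjusted p 0.0671 to 0.082). With the cell cycle covariate the Eos- value was -0.24 (adjusted p = 0.339) and the Eos+ value -0.52 (adjusted p = 0.00172). Between the Treg populations the difference was -0.051 (SE 0.14, adjusted p = 0.862).

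Dnmt3a (ENSMUSG00000020661.15, chr12:3806007-3914443, plus strand) places new methylation. Its level was 107, 132, 159 and 138 CPM in the Eos+ libraries, 153, 179, 193 and 182 in the Eos- libraries and 184, 186, 188 and 179.8 in the Tconv libraries. Eos+ Tregs lay below Tconv without overlap and overlapped with Eos- Tregs through Eos+ replicate 3 and Eos- replicate 1. The difference from Tconv, -0.46 (SE 0.11, adjusted p = 0.00547), held when any one library was left out. The difference from Eos- Tregs, -0.40 (SE 0.11, adjusted p = 0.022), was lost without Eos+ replicate 2 or Eos- replicate 2, 3 or 4 (adjusted p 0.0571 to 0.0723) and with the cell cycle covariate (adjusted p = 0.143). Eos- Tregs differed from Tconv by -0.060 (SE 0.11, adjusted p = 0.784).

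In this group 4 of 5 members were lower in Eos+ than in Eos- Tregs, beside 6.45% of all tested genes, and with the cell cycle covariate 2 of the 4 were still called, Tet1 and Tet2. Against Tconv, 3 of 5 were lower in Eos+ Tregs (beside 13%) and 2 of 5 in Eos- Tregs (beside 5.89%), and neither of the last 2 was called with that covariate. The 4 lower than in Eos- Tregs, Tet1, Tet2, Tet3 and Dnmt3a, are all transcripts of 8 kb or more, and Dnmt1 is not. Of all 674 tested genes with such transcripts, 11.4% were lower in Eos+ than in Eos- Tregs. Their median log2 difference was -0.076, against 0.005 for the other genes. With the correction for transcript length the 4 were still called. Of 13 other genes listed for writing, reading or removing DNA methylation, 12 were tested. Between Eos+ and Eos- Tregs, 1 of the 12 was called (8.33%, beside 16.3% of all tested genes). That was Uhrf2, which encodes a reader of modified cytosine and was higher in Eos+ Tregs. Its means were 146 ± 15.6, 116 ± 11.8 and 96.7 ± 5.03 CPM in Eos+ Tregs, Eos- Tregs and Tconv (± SD, n = 4). Against Tconv, Eos+ Tregs were higher for Uhrf2, Mbd1 and Zbtb38 and lower for Dnmt3b, Zbtb33 and Tdg. These were 50% of the 12, beside 30.3% of all tested genes.

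**Figure D3:**
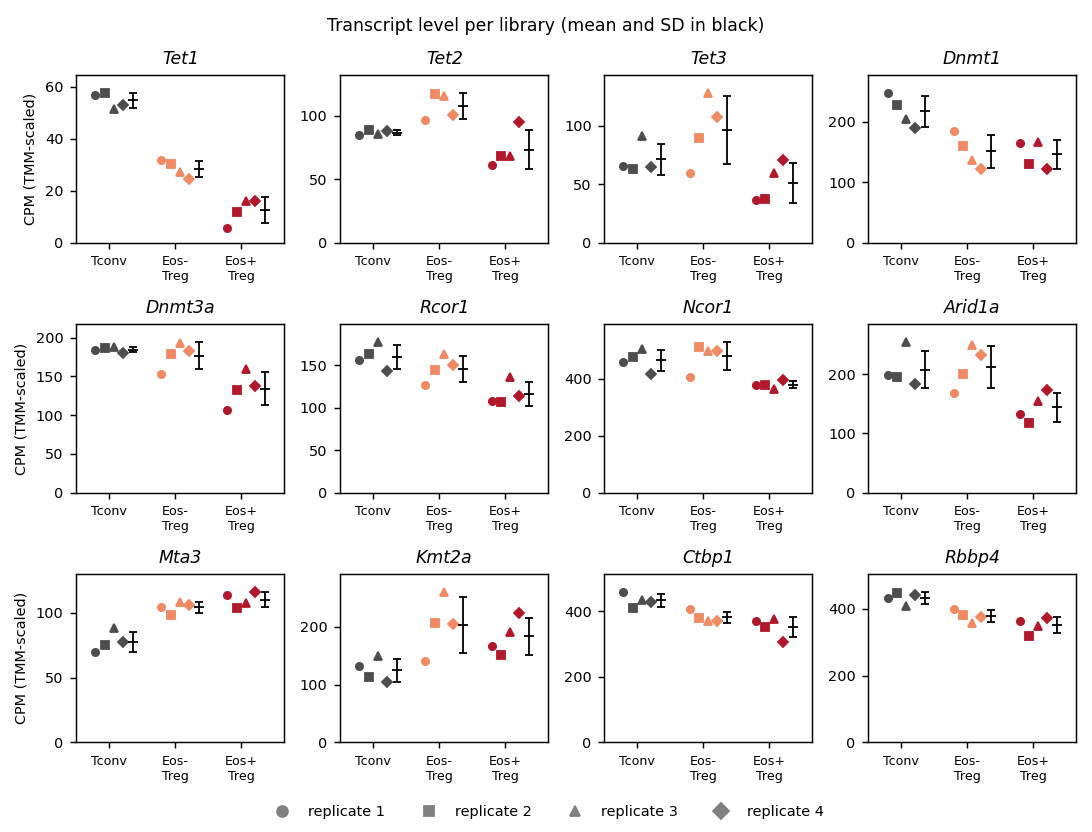
Each panel is 1 gene, with CPM on a y axis that starts at 0 and the 3 populations on the x axis. Symbols are the 4 replicates, and black marks give the mean and SD. Tet1 falls from Tconv through Eos- to Eos+ Tregs with no overlap, Tet2 is highest in Eos- Tregs, and Mta3 and Kmt2a are lowest in Tconv.

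Of the corepressors that carry histone-modifying enzymes, Rcor1, Kdm1a and Ncor1 were lower in Eos+ Tregs than in Tconv. Rcor1 (ENSMUSG00000037896.17, chr12:111039351-111115901, plus strand), which holds the demethylase and deacetylases of CoREST together, was at 108, 106, 136 and 114 CPM in the Eos+ libraries, 127, 145, 164 and 150.0 in the Eos- libraries and 156, 164, 177 and 144 in the Tconv libraries. Eos+ Tregs lay below Tconv without overlap, and Eos+ replicate 3 lay above Eos- replicate 1. The difference from Tconv was -0.46 (SE 0.10, adjusted p = 0.00405) and held when any one library was left out. The difference from Eos- Tregs was -0.33 (SE 0.10, adjusted p = 0.0435). It was lost without any one of 8 libraries (Eos+ replicates 1, 2 and 4, Eos- replicates 2, 3 and 4, Tconv replicates 1 and 2), with the libraries numbered 1 left out (adjusted p = 0.0527) and with the cell cycle covariate (adjusted p = 0.254).

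Kdm1a (ENSMUSG00000036940.15, chr4:136550540-136602723, minus strand), the flavin-dependent demethylase of histone H3, was at 163, 164, 161 and 140.2 CPM in the Eos+ libraries, 184, 198, 173 and 157 in the Eos- libraries and 205, 197, 188 and 168 in the Tconv libraries. Every Eos+ library was below every Tconv library, and Eos- Tregs spanned both. The difference of Eos+ Tregs from Tconv was -0.27 (SE 0.090, adjusted p = 0.0368). It was lost without any one Eos+ library or Tconv replicate 1, 2 or 3 (adjusted p 0.0507 to 0.109) and with the libraries numbered 1 left out (adjusted p = 0.12). Against Eos- Tregs the difference was -0.18 (SE 0.090, adjusted p = 0.211), called with the replicate block (adjusted p = 0.0422).

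Of the 9 other CoREST genes, Zmym2 was lower in Eos+ than in Eos- Tregs (11.1%, beside 16.3% of all tested genes called). Against Tconv, Eos+ Tregs were higher for Rcor3 and Hmg20b and lower for genes that included Zmym2 and Zmym3 (55.6% called, beside 30.3%). Rcor3, a relative of Rcor1, had means of 27.1 ± 4.38, 20.9 ± 3.44 and 15.7 ± 2.28 CPM in Eos+ Tregs, Eos- Tregs and Tconv, the order opposite to that of Rcor1. Its difference from Tconv in Eos+ Tregs was 0.79 (SE 0.16, adjusted p = 0.00283).

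Ncor1 (ENSMUSG00000018501.17, chr11:62316426-62458541, minus strand) brings HDAC3 to nuclear receptors and other factors. It was at 379, 379, 364 and 395 CPM in the Eos+ libraries, 405, 513, 498 and 498 in the Eos- libraries and 459, 478, 504 and 415 in the Tconv libraries. The Eos+ libraries were the 4 lowest of all 12. The difference from Eos- Tregs was -0.34 (SE 0.086, adjusted p = 0.0182), lost without Eos+ replicate 3 or Eos- replicate 2, 3 or 4 (adjusted p 0.0515 to 0.061) and with the cell cycle covariate (adjusted p = 0.113). The difference from Tconv was -0.29 (SE 0.086, adjusted p = 0.0212), lost without Eos+ replicate 3 or Tconv replicate 2 or 3 (adjusted p 0.0563 to 0.0644). With the correction for transcript length the adjusted p was 0.056 against Eos- Tregs and 0.079 against Tconv. Exons of Ncor1 overlap those of Ttc19 and Pigl on the opposite strand, by 1 and 82 bases, and reads there cannot be assigned without strand. Of the 5 other genes of this complex, Tbl1x was lower in Eos+ Tregs than in both other populations. It was at 98.8 ± 14.8, 146 ± 19.7 and 182 ± 16.2 CPM in Eos+ Tregs, Eos- Tregs and Tconv. For Eos+ Tregs, 20% of the 5 were called against Eos- Tregs (beside 16.3% of all tested genes) and 40% against Tconv (beside 30.3%).

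Ctbp1, the cofactor through which Eos is known to silence genes, was present in every library, and Ctbp2 barely so. Ctbp1 (ENSMUSG00000037373.12, chr5:33247723-33274994, minus strand) was at 371, 352, 378 and 308 CPM in the Eos+ libraries, 407, 379, 371 and 372 in the Eos- libraries and 459, 412, 436 and 429.6 in the Tconv libraries. All Tconv libraries were above all Treg libraries, and the Treg populations overlapped. The difference of Eos+ Tregs from Tconv was -0.30 (SE 0.075, adjusted p = 0.00853), 1.23-fold lower, and held when any one library was left out. That of Eos- Tregs was -0.18 (SE 0.075, adjusted p = 0.131), and Eos+ Tregs differed from Eos- Tregs by -0.12 (SE 0.075, adjusted p = 0.337), with a 95% interval of -0.28 to 0.045. Ctbp2 was at 0.878 to 2.88 CPM in the Eos+ libraries, 1.57 to 2.99 in the Eos- and 1.17 to 2.47 in the Tconv libraries. It held 753 counts over all 12 libraries, and its intervals were wide, -1.28 to 0.61 on the log2 scale between the Treg populations. Per kilobase of exons, Ctbp1 was at 78.7 ± 7.00 CPM per kb in Eos+ Tregs and Ctbp2 at 0.281 ± 0.134.

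Of 10 other genes known to bind or act with CtBP, 1 was called, Rreb1. It was lower in Eos+ Tregs than in Eos- Tregs (10% of the genes, beside 16.3% of all tested genes called) and than in Tconv (10%, beside 30.3%). None was called between Eos- Tregs and Tconv (0%, beside 14.6%). Rreb1, a zinc finger factor that binds Ras-responsive elements, was at 8.84, 11.0, 15.2 and 11.4 CPM in the Eos+ libraries, 26.3, 26.7, 38.2 and 38.4 in the Eos- libraries and 36.1, 41.4, 41.4 and 25.2 in the Tconv libraries. The 4 Eos+ libraries were below all others. The differences were -1.48 (SE 0.21, adjusted p = 0.000547) from Eos- Tregs and -1.63 (SE 0.21, adjusted p = 8.4e-05) from Tconv.

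Of the 11 NuRD members, the main edgeR fit, without block or covariate, called none between the Treg populations (0%, beside 16.3% of all tested genes). It called 2 between Eos+ Tregs and Tconv (18.2%, beside 30.3%) and 1 between Eos- Tregs and Tconv (9.09%, beside 14.6%). Rbbp7 had the highest level per kilobase of the 32 genes in each population, 133 ± 24.8 CPM per kb in Eos+ Tregs, followed by Mta2 at 87.7 ± 9.61. Between Eos+ and Eos- Tregs 4 of the 11 had an unadjusted p under 0.05, and DESeq2 called Chd3, Mta1 and Gatad2b lower. Against Tconv, Mta3 was higher and Rbbp4 lower in Eos+ Tregs.

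Mta3 (ENSMUSG00000055817.18, chr17:83706163-83821516, plus strand), a subunit with a GATA-type zinc finger known from B cell biology, was at 114, 104, 107 and 116 CPM in the Eos+ libraries, 105, 98.3, 109 and 106 in the Eos- libraries and 70.0, 75.0, 88.5 and 77.2 in the Tconv libraries. All 8 Treg libraries were above all Tconv libraries. The differences were 0.50 (SE 0.081, adjusted p = 0.000417) for Eos+ Tregs, 1.42-fold higher, and 0.42 (SE 0.081, adjusted p = 0.00359) for Eos- Tregs, 1.34-fold higher, and both held when any one library was left out and with the cell cycle covariate. Eos+ and Eos- Tregs differed by 0.078 (SE 0.081, adjusted p = 0.578), with an interval of -0.097 to 0.25.

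Rbbp4 (ENSMUSG00000057236.10, chr4:129307100-129335370, minus strand), a histone-binding subunit that NuRD shares with Sin3 and the Polycomb complex, was at 363, 318, 349.5 and 373 CPM in the Eos+ libraries, 399.9, 382, 357 and 375 in the Eos- libraries and 432, 447, 408 and 443 in the Tconv libraries. Tconv was above both Treg populations without overlap. The difference was -0.30 (SE 0.069, adjusted p = 0.00525) in Eos+ Tregs, which held when any one library was left out, and -0.19 (SE 0.069, adjusted p = 0.0855) in Eos- Tregs, called with the replicate block (adjusted p = 0.0486). Its near relative Rbbp7 was not called in any comparison and ranged from 300.2 to 484 CPM. Rbbp7 lies on chromosome X and shares 174 exonic bases with Txlng on the opposite strand.

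Chd3, an ATPase of NuRD, was at 118, 152, 189.6 and 220.3 CPM in the Eos+ libraries, 168, 253, 304 and 329 in the Eos- libraries and 158, 184, 249.8 and 172 in the Tconv libraries. Its log2 difference between Eos+ and Eos- Tregs was -0.63 (SE 0.23, adjusted p = 0.0784), called with the replicate block (adjusted p = 0.00532) and with the libraries numbered 1 left out (adjusted p = 0.0279). Eos- Tregs against Tconv gave 0.47 (SE 0.23, adjusted p = 0.203), called with the block (adjusted p = 0.0332). Within each replicate number the Eos+ library was below the Eos- library. Gatad2b, at 28.6, 21.1, 28.6 and 47.6 CPM in the Eos+ libraries and 28.9, 54.3, 55.2 and 58.6 in the Eos- libraries, differed by -0.65 (SE 0.25, adjusted p = 0.0968), called with the block (adjusted p = 0.0484). Mta1 differed by -0.26 (SE 0.097, adjusted p = 0.0842) between the Treg populations, called with the block (adjusted p = 0.0494). The other ATPase, Chd4, was at 129.8 ± 16.7, 140.0 ± 25.6 and 157 ± 15.4 CPM in Eos+ Tregs, Eos- Tregs and Tconv (± SD, n = 4). It was called lower than Tconv in Eos+ Tregs with the block (adjusted p = 0.0387), as was Mta2 (adjusted p = 0.027).

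Mbd2, Mbd3 and Gatad2a were not called in any comparison by the main edgeR fit or DESeq2, and 3 of their 9 tests had an unadjusted p under 0.05. For Mbd2 the log2 difference was -0.171 (SE 0.072, adjusted p = 0.134) between Eos+ and Eos- Tregs. It was 0.165 (SE 0.072, adjusted p = 0.157) between Eos- Tregs and Tconv. The block with the length correction called Mbd2 between the Treg populations. The 95% interval of the log2 difference between Eos+ Tregs and Tconv was -0.16 to 0.15 for Mbd2, which reads methylated CpG, -0.11 to 0.19 for Mbd3 and -0.083 to 0.27 for Gatad2a. Mbd3 was above Tconv in all 4 Eos- libraries, and the block called that difference (adjusted p = 0.0491). Of 9 other NuRD genes tested, Hdac1 differed in all 3 comparisons. It was at 441, 433, 456 and 404 CPM in the Eos+ libraries, 546, 529, 553 and 457 in the Eos- libraries and 346, 329, 348 and 319 in the Tconv libraries. The 3 populations did not overlap, with Eos- Tregs highest and Tconv lowest. Eos+ Tregs differed by -0.27 (SE 0.075, adjusted p = 0.0284) from Eos- Tregs and by 0.37 (SE 0.075, adjusted p = 0.0023) from Tconv. Pwwp2a was lower in Eos+ Tregs than in both other populations, at 42.8 ± 4.62, 59.1 ± 4.89 and 69.7 ± 3.33 CPM. Cdk2ap1 was higher in Eos+ than in Eos- Tregs. Of these 9 genes, 33.3% were called between the Treg populations, beside 16.3% of all tested genes. Against Tconv the share was 44.4% for Eos+ Tregs (beside 30.3%) and 11.1% for Eos- Tregs (beside 14.6%).

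The Sin3 scaffolds were not called in any comparison by the main edgeR fit or DESeq2. Sin3a was at 84.6 ± 9.32, 99.7 ± 15.4 and 92.4 ± 12.2 CPM and Sin3b at 146 ± 9.00, 156 ± 4.09 and 139 ± 6.85 CPM in Eos+ Tregs, Eos- Tregs and Tconv (± SD, n = 4). All 4 Eos- libraries were above all Tconv libraries for Sin3b, and the log2 difference, the 1 of 6 for the scaffolds with an unadjusted p under 0.05, was 0.17 (SE 0.066, adjusted p = 0.115). The length correction called it (adjusted p = 0.0493). Of 15 other Sin3 genes, Sap130 and Bbx were lower in Eos+ than in Eos- Tregs. Against Tconv, Eos+ Tregs were higher for Brms1 and lower for Brms1l and Kdm5a, a demethylase of active-promoter histone marks, at 157 ± 20.5, 196 ± 19.0 and 220.0 ± 19.9 CPM. Eos- Tregs were higher than Tconv for Arid4a and Bbx. The shares of the 15 called in these comparisons, in that order, were 13.3%, 20% and 13.3%. The shares of all tested genes were 16.3%, 30.3% and 14.6%.

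In the Polycomb complex that methylates histone H3, Ezh2 and Suz12 were lower in Eos+ Tregs than in Tconv. Ezh2 (ENSMUSG00000029687.16, chr6:47530139-47595341, minus strand), the methyltransferase of dividing cells, was at 75.4, 56.7, 59.9 and 72.2 CPM in the Eos+ libraries, 78.2, 66.3, 79.6 and 61.9 in the Eos- libraries and 97.8, 95.5, 80.0 and 82.0 in the Tconv libraries. Tconv was above both Treg populations without overlap, by a margin of under 1 CPM for Eos- Tregs. The difference of Eos+ Tregs was -0.43 (SE 0.12, adjusted p = 0.0173), lost without Eos+ replicate 2 or 3 or Tconv replicate 1 (adjusted p 0.0522 to 0.0548). With the cell cycle covariate it was -0.41 (adjusted p = 0.0211). Its paralogue Ezh1, known for its expression in resting cells, was at 143, 186, 168 and 134 CPM in the Eos+ libraries, 123, 131, 160.4 and 122 in the Eos- libraries and 134, 125, 139 and 122 in the Tconv libraries. Its difference of Eos+ Tregs from Tconv had the opposite sign, 0.28 (SE 0.12, adjusted p = 0.0807), and was called with the replicate block (adjusted p = 0.0316).

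Suz12 (ENSMUSG00000017548.15, chr11:79993106-80034123, plus strand), a core subunit needed for the enzyme's activity, was at 96.1, 108, 117 and 119 CPM in the Eos+ libraries, 115, 143, 125 and 136 in the Eos- libraries and 136, 133, 125 and 137 in the Tconv libraries. Every Eos+ library was below every Tconv library. The difference was -0.27 (SE 0.088, adjusted p = 0.0316). It was lost without Eos+ replicate 1 or 2 or Tconv replicate 1, 2 or 4 (adjusted p 0.0725 to 0.0903), with the libraries numbered 1 left out (adjusted p = 0.109) and with the length correction (adjusted p = 0.0508). Eed, which binds the methyl mark, was at 104 ± 12.3, 91.6 ± 14.2 and 95.4 ± 12.4 CPM and was not called. Of 6 accessory genes of this complex, Aebp2 was higher in Eos+ Tregs than in both other populations, at 105 ± 12.4, 77.4 ± 5.39 and 76.0 ± 3.42 CPM. Phf1 was higher than Tconv in both Treg populations, at 102 ± 9.92, 95.1 ± 10.3 and 67.1 ± 9.22 CPM. Epop was higher in Eos+ Tregs than in Tconv, while Jarid2 and Mtf2 were lower. Of the 6, 16.7% were called between the Treg populations, near the 16.3% of all tested genes. Against Tconv the share was 83.3% for Eos+ Tregs (beside 30.3%) and 16.7% for Eos- Tregs (beside 14.6%).

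Genes of the second Polycomb complex, which modifies histone H2A, have no member in the set. Of 22 such genes, 1 was higher and 3 were lower in Eos+ than in Eos- Tregs (18.2%, near the 16.3% of all tested genes). In Eos+ Tregs 6 were higher and 3 lower than in Tconv (40.9%, beside 30.3%), and in Eos- Tregs 3 were higher and 1 lower (18.2%, beside 14.6%). Cbx7, a reader of Polycomb methylation, was at 216, 267, 277 and 255 CPM in the Eos+ libraries, 123, 130.3, 189 and 170.2 in the Eos- libraries and 63.6, 52.4, 69.4 and 68.5 in the Tconv libraries. The 3 populations did not overlap, and the order ran from Eos+ Tregs down to Tconv, opposite to that of Tet1. The differences were 0.73 (SE 0.14, adjusted p = 0.00373) from Eos- Tregs and 2.00 (SE 0.15, adjusted p = 7.76e-07) from Tconv.

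The BAF members were both lower in Eos+ Tregs than in Tconv. Smarca4 (ENSMUSG00000032187.16, chr9:21616169-21704230, plus strand), the ATPase, was at 178, 133, 179.9 and 169.8 CPM in the Eos+ libraries, 182, 163, 179.6 and 159.9 in the Eos- libraries and 219, 199, 238 and 189 in the Tconv libraries. Tconv was above both Treg populations without overlap. The difference was -0.35 (SE 0.10, adjusted p = 0.0215) in Eos+ Tregs, lost without Eos+ replicate 2 or Tconv replicate 1 or 3 (adjusted p 0.0521 to 0.0679) and with the length correction (adjusted p = 0.0652). In Eos- Tregs it was -0.30 (SE 0.10, adjusted p = 0.0739), called with the block (adjusted p = 0.0171).

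Arid1a (ENSMUSG00000007880.16, chr4:133679008-133756769, minus strand), the DNA-binding subunit that defines canonical BAF, was at 132, 117, 154 and 173 CPM in the Eos+ libraries, 169, 199.7, 249 and 233 in the Eos- libraries and 198, 195, 254 and 184 in the Tconv libraries. All Eos+ libraries were below all Tconv libraries, and Eos+ replicate 4 was above Eos- replicate 1. The difference from Eos- Tregs was -0.56 (SE 0.15, adjusted p = 0.0218), lost without Eos+ replicate 1 or 2 or Eos- replicate 3 or 4 (adjusted p 0.0611 to 0.0685) and with the cell cycle covariate (adjusted p = 0.168). The difference from Tconv was -0.53 (SE 0.15, adjusted p = 0.0171), lost without Eos+ replicate 2 or Tconv replicate 3 (adjusted p 0.0541 and 0.0564).

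Of 24 other BAF genes, 21 were tested. Against Eos- Tregs, 2 were higher and 4 lower in Eos+ Tregs (28.6%, beside 16.3% of all tested genes), and against Tconv, 5 were higher and 6 lower (52.4%, beside 30.3%). Smarcd3, a subunit variant known from heart muscle, was at 12.0, 7.61, 6.15 and 10.3 CPM in the Eos+ libraries, 0, 0, 0.173 and 0.661 in the Eos- libraries and 0.621, 0.355, 0.311 and 0.421 in the Tconv libraries. It was detected in every Eos+ library at 6.15 CPM or more and stayed under 1 CPM in all others. The log2 difference from Eos- Tregs was 5.36 (SE 0.90, adjusted p = 0.0015). Smarca2, the ATPase that can replace Smarca4, was lower than Tconv in both Treg populations, at 141 ± 9.09, 166 ± 9.54 and 220.1 ± 20.0 CPM. Smarcb1, a core subunit, was higher than Tconv in both, at 129.6 ± 2.86, 142 ± 4.67 and 112 ± 9.99 CPM. Bcl7a and Bcl7b were lower in Eos+ than in Eos- Tregs, and Bcl7c was higher.

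Kmt2a (ENSMUSG00000002028.13, chr9:44803355-44881296, minus strand), the founding MLL methyltransferase of histone H3, was at 166, 151, 191 and 224 CPM in the Eos+ libraries, 141, 206, 260.1 and 205 in the Eos- libraries and 132, 113, 149.5 and 105 in the Tconv libraries. Eos+ Tregs lay above Tconv without overlap, and Eos- replicate 1 lay within the Tconv range. The difference from Tconv was 0.55 (SE 0.18, adjusted p = 0.0316) in Eos+ Tregs, lost without Eos+ replicate 3 or 4 or Tconv replicate 1, 2 or 4 (adjusted p 0.0524 to 0.0956). In Eos- Tregs it was 0.70 (SE 0.18, adjusted p = 0.0188), lost without Eos- replicate 3 or Tconv replicate 2 or 4 (adjusted p 0.0589 to 0.0604). With the cell cycle covariate the value was 0.49 (adjusted p = 0.0222) in Eos+ and 0.36 (adjusted p = 0.315) in Eos- Tregs. Without any one of Eos+ replicate 3 or Tconv replicate 1, 2 or 4, Mta3 was the 1 member left higher in Eos+ Tregs than in Tconv. The same held in Eos- Tregs without Eos- replicate 3 or Tconv replicate 2 or 4.

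Kmt2d, another member of the MLL family that acts at enhancers, was at 91.6, 81.2, 106 and 148 CPM in the Eos+ libraries, 105, 132, 177 and 142 in the Eos- libraries and 105, 121, 173 and 112 in the Tconv libraries. Its groups overlapped, and its largest log2 difference was -0.38 (SE 0.21, adjusted p = 0.256). Kat5, the acetyltransferase of the Tip60 complex, was at 57.8 ± 3.37, 57.4 ± 8.00 and 51.9 ± 5.77 CPM, was not called, and shares 426 exonic bases with Rnaseh2c on the opposite strand. Of 18 other MLL genes, Ash2l, a core subunit, was higher in Eos+ Tregs than in both other populations, at 116 ± 7.68, 94.1 ± 2.68 and 98.8 ± 6.11 CPM. Kdm6b, the demethylase that removes the Polycomb mark, was lower in Eos+ Tregs than in both, at 9.52 ± 1.81, 17.3 ± 4.61 and 20.1 ± 4.53 CPM. Of these 18 genes, 16.7% were called between the Treg populations, near the 16.3% of all tested genes. Against Tconv the share was 22.2% for Eos+ Tregs (beside 30.3%) and 0% for Eos- Tregs (beside 14.6%). Of 17 other Tip60 genes, 3 were lower in Eos+ than in Eos- Tregs, Trrap, Mrgbp and Mbtd1 (17.6%, near the 16.3% of all tested genes), and 6 were lower and 1 higher in Eos+ Tregs than in Tconv (41.2%, beside 30.3%). Mbtd1 was at 38.3 ± 3.33, 57.9 ± 9.30 and 62.0 ± 1.83 CPM.

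**Figure D4:**
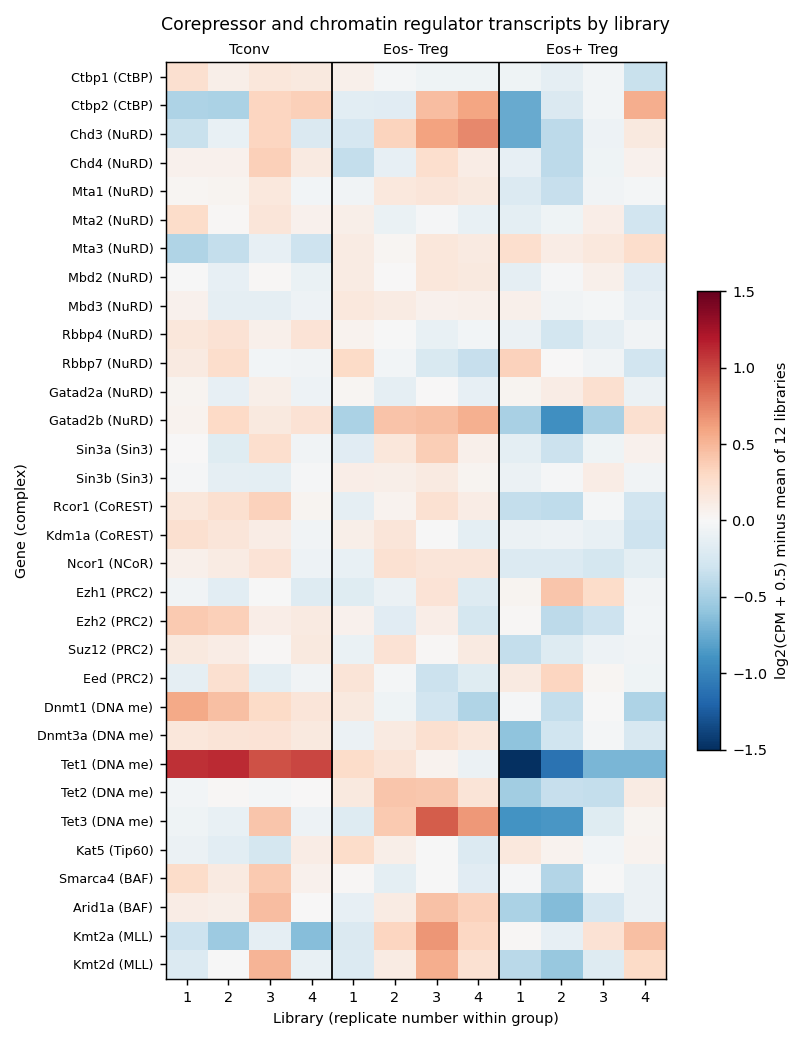
Rows are the 32 genes with their complex and columns the 12 libraries, grouped by population. The color is log2(CPM + 0.5) minus the mean of the gene over the 12 libraries, on a scale from -1.5 to 1.5, with values beyond it drawn in the end color. Tet1 has the widest range, and Kmt2a and Mta3 are low in the 4 Tconv columns.

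Ratios of related genes within a library give their balance without the library's total. They were not tested. Kmt2a over Kmt2d was 1.52 to 1.86 in the Eos+ libraries, 1.34 to 1.56 in the Eos- and 0.867 to 1.26 in the Tconv libraries, so Tconv lay below both Treg populations. Both genes are long transcripts. Tet1 over Tet3 was 0.155 to 0.321 in the Eos+ libraries, 0.212 to 0.534 in the Eos- and 0.563 to 0.906 in the Tconv libraries, with Tconv above both. Mta3 over Mta2 was lowest in Tconv, 0.151 to 0.204, against 0.263 to 0.368 in Eos+ and 0.257 to 0.300 in Eos- Tregs. Ezh2 over Ezh1 was 0.304 to 0.537 in Eos+ Tregs and 0.577 to 0.766 in Tconv, which did not overlap, and 0.497 to 0.635 in Eos- Tregs. Chd4 over Chd3 was lowest in Eos- Tregs, 0.464 to 0.656, against 0.671 to 1.10 in Eos+ Tregs and 0.720 to 0.932 in Tconv. The other 8 ratios, such as Tet2 over Tet3 and Dnmt1 over Dnmt3a, overlapped in every comparison of groups.

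**Figure D5:**
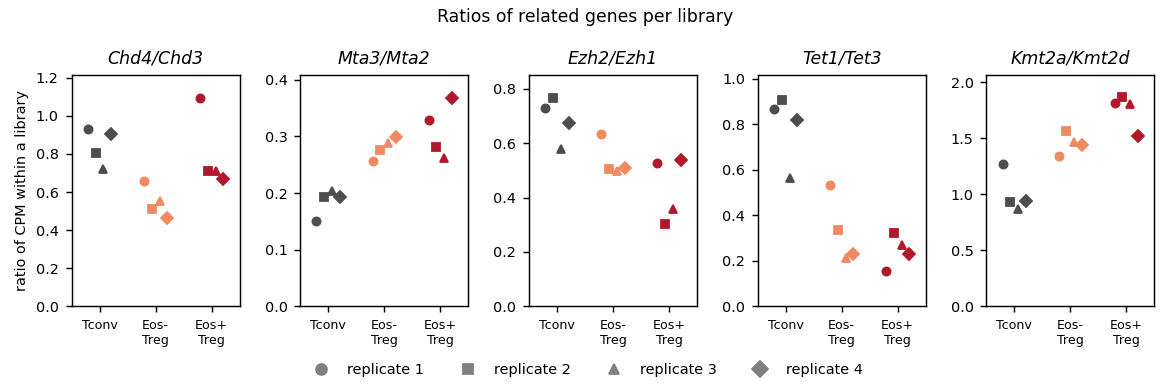
Each panel gives the ratio of CPM of 2 related genes in each of the 12 libraries, with the populations on the x axis, a y axis from 0 and the replicate as the symbol. Tet1 over Tet3 is highest in Tconv, Kmt2a over Kmt2d and Mta3 over Mta2 are lowest there, and Chd4 over Chd3 is lowest in Eos- Tregs.

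Over all 149 other genes of these complexes, of which 144 were tested, 7 were higher and 19 lower in Eos+ than in Eos- Tregs (18.1%, beside 16.3% of all tested genes), with a median log2 difference of -0.12. Against Tconv, 25 were higher and 32 lower in Eos+ Tregs (39.6%, beside 30.3%), with a median of -0.083. In Eos- Tregs 14 were higher and 3 lower than in Tconv (11.8%, beside 14.6%), with a median of 0.026. With the replicate block the lower genes numbered 36 in the first comparison, the higher 13, and the lower 15 in the last. Without the libraries numbered 1 the last count was 8. The 19 became 12 without Eos+ replicate 1 and 11 without Eos- replicate 3, and the 3 became 6, 5 and 8 without Eos+ replicate 1, Eos+ replicate 4 and Eos- replicate 1.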

How the data were processed

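RNA was measured in 12 libraries of mouse thymus, 4 per sorted population, grouped by their titles. A template-switching kit and tagmentation made the libraries from 1 ng of RNA, per the labels' protocols, a chemistry that leaves RNA strand unmarked. The authors deposited RSEM expected counts for each gene, unscaled. The tools were cutadapt 1.18, STAR 2.7.0f and RSEM 1.3.1 with the mm10 build, per the submitters' processing notes. Settings and annotation release are not given in the sources used here. The 32 genes and the lists of partner and marker genes were chosen with earlier results of these data known.

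After rounding of the expected counts, genes were tested with edgeR 4.0.16 (R 4.3.3) by the two-sided quasi-likelihood test, with TMM factors, the filterByExpr filter (15361 of 55450 genes kept) and 1 mean per group over all 12 libraries. P-values were Benjamini-Hochberg adjusted per comparison, with a threshold of 0.05. Intervals are at 95%, and the number of libraries limits their precision. All gene IDs matched GENCODE M21, which gave positions and exon lengths. RSEM's sharing of reads between similar genes left at most 0.0136% of any member's count fractional. The named genes are all 32 members, called partner genes (at most 2 per complex and comparison were to carry values) and Foxp3, Ikzf4 and Ccr6. Other called partner genes are named after their values were seen, and some genes are not reported here.

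The labels do not say that replicates are separate animals, so a p-value here reflects library-to-library spread only, part of which may be technical. In every population the male-specific Ddx3y was at 119.7 to 187 CPM in replicates 1 and 3 and 0 in replicates 2 and 4, and Xist at most 0.559 CPM in the former and 38.8 to 150.4 in the latter, so the replicates of a group did not all come from 1 animal. No 2 libraries of a group agreed within sampling noise (18 pairs). Library names tie same-numbered libraries by a shared tag, and deviations from the group means correlated at 0.14 to 0.32 in all 12 same-numbered pairs, against -0.23 to 0.070 in the other 36, so the replicate number was taken to pair the libraries. Alternatives were RLE size factors, no count filter, DESeq2 1.42.0, the replicate block, 2 groups per fit, no libraries numbered 1, a cell cycle covariate and each library left out. The correction for transcript length, alone and with the block, was chosen after seeing the data. Only the fits named as having the block used the pairing. The main fit, its SE and intervals, and the fits with a library left out did not.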

Additional observations from a re-analysis of the deposited data

Results flagged for a closer look

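In each population, the highest and lowest of the 4 libraries were compared with the others for all 32 genes, 96 groups in all. In 4 of them 1 library stood apart by Dixon's 95% criterion, and chance gives about 4.8. Gatad2b was at 28.9 CPM in Eos- Treg replicate 1, beside 54.3 to 58.6 in the other 3 Eos- libraries. Ncor1 was at 405 CPM in the same library, beside 498 to 513. That library also held 53.3 CPM of Foxp3 and had the highest cell cycle measure of its group, and the part of either in these values was not tested. Kdm1a was at 140.2 CPM in Eos+ Treg replicate 4, beside 160.6 to 164 in the other 3. Tet3 was at 91.4 CPM in Tconv replicate 3, beside 63.6 to 65.6.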

How the results depend on the processing

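Of the 25 calls of single members, all kept their direction under every alternative run. RLE size factors changed no member call. The block added calls and lost none, and apart from the counts given here and in the results it changed no count by over 1.5 times. Members lower in Eos+ than in Eos- Tregs numbered 7, with 11 under the block, 2 with the cell cycle covariate and 12 with the block and length correction together. The partner genes higher there, 7, became 12 with DESeq2, 13 with the block and 14 with block and length correction, and those lower, 19, became 36, 12 (cell cycle) and 32. For Eos- Tregs against Tconv, all genes called (2249) fell to 1038 with the cell cycle covariate and rose to 3444 with block and length correction. Members higher (2) became 4 with the block, 1 with cell cycle and 5 with block and length correction, and members lower (2) became 4 with DESeq2, 4 with the block and 0 with cell cycle (edgeR). Partner genes higher (14) became 5 with cell cycle, and those lower (3) became 8 with DESeq2, 15 with the block, 7 with 2 groups per fit, 8 without libraries numbered 1, 6 with cell cycle, 5 with length correction and 14 with block and length correction. The cause of these shifts was not tested. Leaving out each library in turn gave, for Eos+ against Eos- Tregs, 1910 to 2936 genes, 2 to 11 members lower, 0 higher, and 11 to 26 partner genes lower and 5 to 8 higher. For Eos+ Tregs against Tconv it gave 3882 to 4947 genes, 7 to 13 members lower, 1 to 2 higher, and 23 to 34 partner genes lower and 18 to 25 higher. For Eos- Tregs against Tconv it gave 1574 to 2884 genes, 0 to 3 members lower, 1 to 3 higher, and 3 to 8 partner genes lower and 10 to 16 higher. Without a count filter Rcor1 was not called between the Treg populations, nor Kdm1a and Suz12 against Tconv; in fits of 2 groups Rcor1 and Tet3 were not called between the Treg populations. Depth limits Ctbp2 most, with 753 counts in all.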

Other observations

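Summed levels of the other marker lists were as follows. The 12 double-positive thymocyte genes summed to 318 to 707 CPM in Eos+ Tregs, 264 to 709 in Eos- Tregs and 353 to 606 in Tconv, with replicate 1 highest in each population, and none was called in any comparison (edgeR; 1 had an unadjusted p under 0.05 between the Treg populations). The 10 CD8, NK and cytotoxic genes summed to 127 to 195 CPM in Eos+ Tregs, 54.4 to 139.6 in Eos- Tregs and 146 to 525 in Tconv, with 1 of 9 tested, Nkg7, higher in Eos+ than in Eos- Tregs and 4 lower in Eos+ Tregs than in Tconv. The 12 dendritic cell and macrophage genes summed to 18.2 to 116, 3.77 to 80.7 and 27.2 to 58.6 CPM. Of 10 tested, Xcr1 was higher in Eos+ Tregs than in both other populations, at 1.75 to 5.96, 0.171 to 0.831 and 0.497 to 1.37 CPM, and Itgam was lower in Eos+ Tregs than in Tconv. The 10 genes listed for thymic epithelium and stroma summed to 136 to 191, 233 to 338 and 197 to 225 CPM. Most of that was Pecam1, at 96.7 to 160.2, 217 to 327 and 187 to 217 CPM, while Foxn1 and Krt5 were at or near 0. Of 6 tested, Epcam was higher and Pecam1 lower in Eos+ Tregs than in both other populations. Aire, a factor of thymic epithelium, was at 0.675 to 2.47 CPM in Eos+ Tregs, 0 to 0.0691 in Eos- Tregs and 0 in 3 of 4 Tconv libraries, and was called higher in Eos+ than in Eos- Tregs (edgeR adjusted p = 0.0299). Cdh5 was called lower in Eos+ Tregs than in Tconv, at 0 CPM in every Eos+ library and 0.131 to 0.746 in Tconv. It was near the floor, with 68 counts over all 12 libraries. The part of these signals in the results was not tested.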
